A study of Mus musculus with 2 samples.

Results

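The Hedgehog pathway genes Dhh, Ihh, Ptch1, Smo, Gli1, Gli2, Gli3 and Hhip were examined in the E15.5 (embryonic day) mouse ovary, before steroid-producing theca cells differentiate. They were taken by symbol from the rows of the deposited count matrices, as 8 of 27998 genes, and all 8 were detected in both libraries. In Hedgehog signaling, a secreted ligand binds the membrane receptor PTCH1 and relieves its block on SMO, which then turns the GLI transcription factors toward activation. Gli1 and Ptch1 are themselves transcribed in response, so their RNA is widely used to mark cells that receive the signal, while GLI2 and GLI3 carry the first response and HHIP binds and removes ligand. In the postnatal ovary, granulosa cells are known to make the ligands Dhh and Ihh, and the surrounding mesenchyme that gives rise to theca is known to respond.

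The study asked what the glucocorticoid receptor (GR, encoded by Nr3c1) does in the fetal ovary, using 10X single-cell RNA-seq of a wildtype (WT) and a GR knockout (KO) library. Both libraries came from the strain listed as Tg(Pou5f1-EGFP)2Mnn Nr3c1tm1.1Jda, in which the OCT4-GFP transgene marks germ cells. The KO allele lacks Nr3c1 exon 3 in every tissue, having been made with a constitutive β-actin Cre, and no embryo received a treatment. Ovaries were freed of mesonephros and pooled, from 4 WT and 2 KO embryos, and sorted GFP-positive germ cells were mixed with somatic cells at 60% to 40%. Each genotype was therefore 1 library, so no difference between them had a replicate check, and genotype cannot be told apart from embryo pool, sort or capture.

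The WT library held 168483330 unique molecular identifiers (UMIs, 1 per captured RNA molecule) in 11430 barcodes and the KO library 186117981 UMIs in 17829. The study's limits on genes, UMIs and mitochondrial share left 9045 WT and 15502 KO cells, with median UMIs of 15685 and 10194.5. The libraries shared 75 barcode sequences, 27 of them among kept cells. Cells were clustered without the Hedgehog genes and named from fixed marker genes as germ-like (6803 WT and 10213 KO cells), granulosa-like (924 and 2019), stroma-like (820 and 1887), epithelia-like (400 and 1079), endothelia-like (30 and 136), perivascular-like (21 and 62), immune-like (32 and 51) and erythroid-like (15 and 55). The level of Nr3c1 in KO was 16.1% to 36.4% of the WT level in 7 classes. In perivascular-like cells it was 83.0%, from 12 KO and 7 WT UMIs. RNA of other classes was measurable. Granulosa-like cells held RNA of 8 germ cell markers at a median of 9.97% (WT) and 16.3% (KO) of what germ-like cells held. RNA of 8 stroma markers stood in germ-like cells at a median of 0.304% and 0.517% of its stroma-like level. Whether this RNA was free in the suspension or came from barcodes with more than 1 cell (doublets) was not tested. The study named a theca cluster, whose counterpart by collagen and Pdgfra markers is the stroma-like class. Its levels of Cyp17a1, the androgen-making enzyme of mature theca, were 0.314 and 0.263 UMIs per 1000000 (CPM) in WT and KO, and the summed level of the 7 genes of a steroidogenic list was 5.14 and 5.39 CPM, against 68.2 and 59.4 CPM in granulosa-like cells. The neutral name stroma-like is used here.

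Promoter sequence is shown for Gli2, Ptch1 and Dhh, picked from the Hedgehog genes with an entry in RefSeq (GRCm38.p6). Each promoter sequence held the 250 bases before the start of the gene and a shorter run after it. It was searched on both strands for the 9-base consensus bound by GLI proteins, GACCACCCA, and for the ACCACCC core inside it. Only the 250 bases before the start are printed, and the windows described below are those. The consensus was found in 83 of 32851 mouse promoters (0.253%) and in 0 of the 7 Hedgehog genes in the table. The core was found in 1514 promoters (4.61%) and in 1 of the 7, that of Gli2, where capitals mark it on the reverse strand, beginning 205 bases before the start. Gli2 is shown at chr1:119053620-119053869, Ptch1 at chr13:63565736-63565985 and Dhh at chr15:98898541-98898790, all read 5′ to 3′ along the minus strand on which these genes lie. The Ptch1 start used by RefSeq lies within the span of the gene annotated in GENCODE, so starts further out are not covered.
Gli2: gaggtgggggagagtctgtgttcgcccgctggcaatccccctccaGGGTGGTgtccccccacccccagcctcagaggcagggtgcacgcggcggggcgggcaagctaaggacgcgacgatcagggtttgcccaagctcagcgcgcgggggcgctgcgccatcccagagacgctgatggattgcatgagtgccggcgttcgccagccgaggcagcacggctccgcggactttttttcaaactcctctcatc
Ptch1: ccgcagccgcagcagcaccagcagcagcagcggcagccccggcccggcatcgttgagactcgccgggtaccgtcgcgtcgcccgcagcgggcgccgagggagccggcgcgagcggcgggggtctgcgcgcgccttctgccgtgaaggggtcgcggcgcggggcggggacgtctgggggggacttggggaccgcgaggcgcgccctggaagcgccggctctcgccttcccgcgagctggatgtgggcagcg
Dhh: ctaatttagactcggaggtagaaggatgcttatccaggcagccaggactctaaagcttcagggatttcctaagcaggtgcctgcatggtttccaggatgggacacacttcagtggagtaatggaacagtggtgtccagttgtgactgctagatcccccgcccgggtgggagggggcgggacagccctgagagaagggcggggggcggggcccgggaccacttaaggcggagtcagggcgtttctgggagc
The Ptch1 window was 78.4% G and C with 41 CpG pairs, the Gli2 window 67.2% with 22, and the Dhh window 59.6% with 9, against a median of 52.4% G and C over all promoters. A match is a description of the letters alone, and its absence from a window says nothing of binding elsewhere.

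The gene models lie on mm10 (GRCm38) as follows. Ihh spans chr1:74945315-74951672 and Gli2 chr1:118834132-119053619, both on the minus strand. Smo spans chr6:29735503-29761365 on the plus strand. Hhip spans chr8:79965851-80058006, Gli1 chr10:127329882-127341974, Ptch1 chr13:63508328-63573598 and Dhh chr15:98891152-98898540, all on the minus strand. Gli3 spans chr13:15463235-15730026 on the plus strand. All 8 are protein coding. Dhh overlaps Rhebl1 on its own strand, and Gli1 overlaps Arhgap9 on the opposite strand. How reads in such overlaps were assigned was not tested, so the low counts of Dhh and Gli1 carry that uncertainty.

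Ligand RNA was scarce in every class. Dhh, the Desert hedgehog ligand, totalled 15 UMIs in all WT and 19 in all KO cells. Among the 5 classes with most cells its level was highest in endothelia-like cells, at 8.09 CPM in WT (95% interval 1.67 to 23.6, 3 UMIs) and 5.03 CPM in KO (2.02 to 10.4, 7 UMIs in 6 of 136 cells). All intervals given are exact counting intervals for a summed UMI count and cover counting error only, not differences between embryos. Granulosa-like cells held 1 Dhh UMI in WT and 8 in KO (0.0813 and 0.417 CPM), and germ-like cells held 9 and 4 UMIs (0.0745 and 0.0328 CPM). Stroma-like and epithelia-like cells each held 1 UMI in WT and 0 in KO, and none was counted among immune-like, erythroid-like and perivascular-like cells. At the floor of 3 UMIs these small classes allow up to 6.83, 8.13 and 10.7 CPM in WT and 5.55, 3.34 and 5.20 CPM in KO, so they were not shown to lie below endothelia-like cells.

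In KO, the Dhh level of endothelia-like cells was 12.04-fold that of granulosa-like cells (log2 ratio 3.59, 1.89 to 5.25) and at least 25.5-fold that of stroma-like cells, counting their 0 UMIs as 3. For WT the fold is not given, since both sides held 3 UMIs or fewer. The endothelia-like class itself was distinct, with 7 of 7 endothelial markers passing, among them Pecam1 and Cdh5, although 16.9% of its cells were called doublets by Scrublet. After removal of those cells the level was 8.09 CPM in WT and 7.62 CPM in KO. At a common depth of 3000 UMIs per cell it was 0 and 4.90 CPM, so the WT value rests on 3 molecules. Of the 8 KO granulosa-like UMIs, 5 fell in the smaller of the main granulosa clusters at finer resolution (1.94 CPM, 0.629 to 4.52), which held 0 in WT.

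Ihh, the Indian hedgehog ligand, totalled 96 UMIs in WT and 82 in KO, and most lay in germ-like cells. These held 88 UMIs in WT (0.728 CPM, 0.584 to 0.897) and 71 in KO (0.582 CPM, 0.455 to 0.735). Each somatic class held between 0 and 6. Over all somatic-like cells together the Ihh level was 0.261 CPM in WT and 0.215 CPM in KO, so germ-like cells stood 2.79-fold higher in WT (log2 ratio 1.48, 0.44 to 2.74) and 2.71-fold higher in KO (1.44, 0.512 to 2.503). Seen from the other side, somatic Ihh stood at 35.8% and 36.9% of the level in germ-like cells. In granulosa-like cells, the source of Ihh after birth, 3 UMIs were counted in WT and 1 in KO.

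A UMI of Ihh was present in 1.28% of WT and 0.695% of KO germ-like cells, at median depths of 17113 and 11325 UMIs. Thinned to 3000 UMIs per cell the shares were 0.220% and 0.166%, beside 0.178% and 0.0567% in all somatic-like cells. At that depth the germ-like share in WT was within the counting interval of the somatic share (0.0486% to 0.456%). In KO the germ-like share (0.1665%, 0.0970% to 0.266%) lay just above the somatic interval (0.0117% to 0.1657%), and the intervals overlapped. Immune-like cells, which should lack the gene, held 0 in 32 WT and 51 KO cells, which at the floor of 3 counts allows a share of up to 9.38% and 5.88%.

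Shh, the Sonic hedgehog ligand and the first entry of the pathway list, was likewise counted mostly in germ-like cells, with 142 UMIs in WT (1.17 CPM, 0.990 to 1.38) and 86 in KO (0.705 CPM, 0.564 to 0.871) germ-like cells. All somatic-like cells together held 8 and 9. The germ-like level was lower in KO (log2 ratio KO over WT −0.74, −1.14 to −0.34), less than 2-fold. Hhip, which encodes the ligand-binding inhibitor, was as scarce. It totalled 45 and 85 UMIs, of which 38 in WT (0.314 CPM, 0.222 to 0.432) and 62 in KO (0.509 CPM, 0.390 to 0.652) lay in germ-like cells. Granulosa-like cells held 0.325 CPM in WT and 0.678 CPM in KO from 4 and 13 UMIs, and stroma-like cells 0.105 and 0.132 CPM from 1 and 2. The intervals of germ-like and granulosa-like cells overlapped in both libraries.

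**Figure D1:**
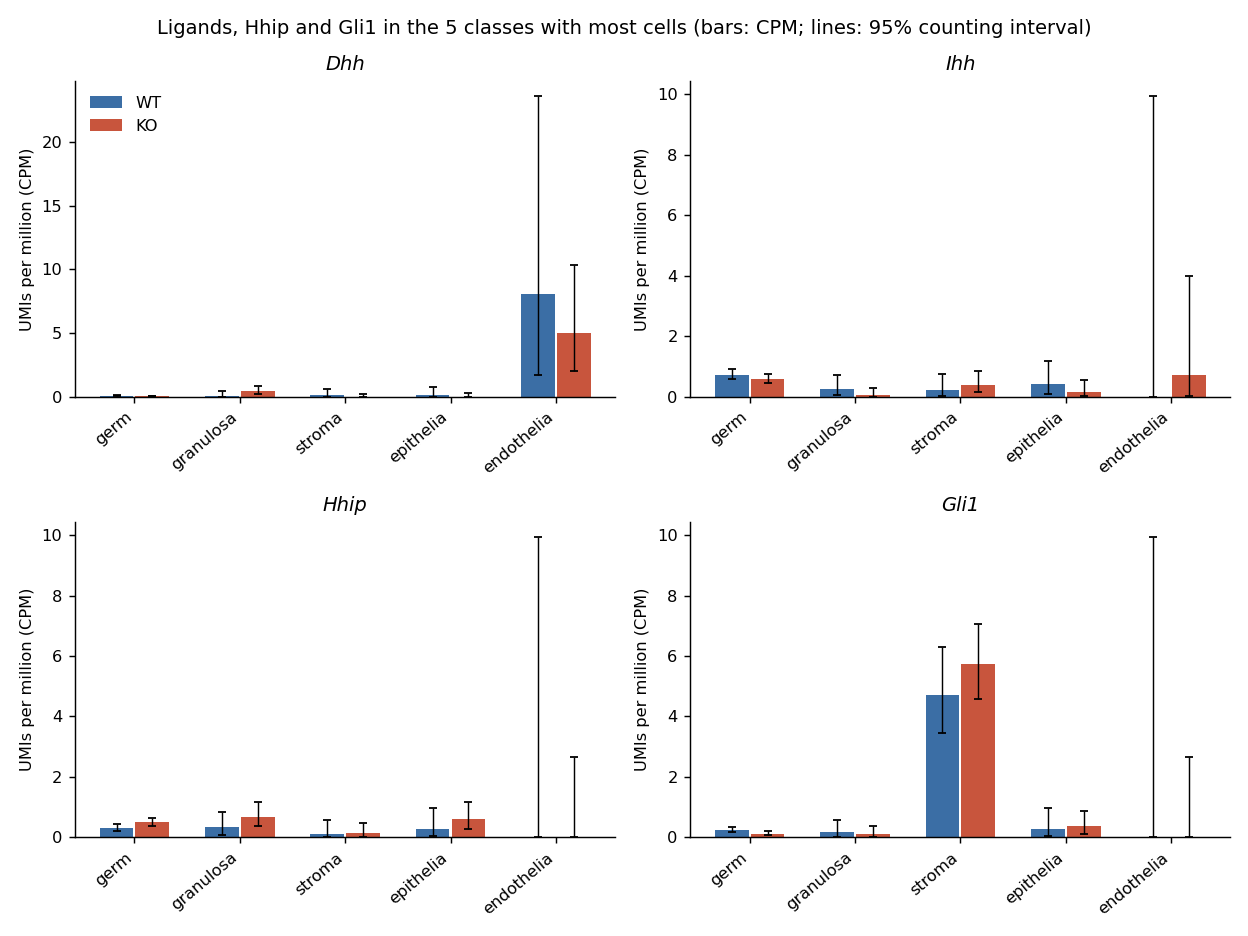
Level in CPM (vertical axes) of the ligands Dhh and Ihh, the inhibitor Hhip and the effector Gli1 in the 5 classes with most cells (horizontal axes), WT in blue and KO in red, with 95% counting intervals. Dhh stood highest in endothelia-like cells at 8.09 and 5.03 CPM with wide intervals, and Gli1 in stroma-like cells at 4.72 and 5.72 CPM. A bar at 0 with a long line is a class with few cells.

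Ptch1, the ligand receptor and a reported response gene, was found in every class and was highest in granulosa-like cells among the 4 classes with most cells. Granulosa-like cells held 21.7 CPM in WT (19.2 to 24.5, 267 UMIs) and 15.8 CPM in KO (14.0 to 17.6, 302 UMIs). Stroma-like cells held 11.9 CPM (9.86 to 14.4) and 11.1 CPM (9.50 to 12.9), and germ-like cells 11.4 CPM (10.8 to 12.03) and 10.7 CPM (10.1 to 11.3). Epithelia-like cells held 8.68 CPM (6.68 to 11.1) and 8.97 CPM (7.43 to 10.7). Stroma-like and germ-like cells were neighbours in this order whose intervals overlapped in both libraries. Stroma-like over epithelia-like cells gave a log2 ratio of 0.46 in WT (0.01 to 0.93) and 0.31 in KO (−0.04 to 0.66).

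The granulosa-like level was above that of stroma-like cells by 0.86 on the log2 scale in WT and 0.50 in KO (stroma-like over granulosa-like −0.86, −1.19 to −0.54, and −0.50, −0.78 to −0.23). Without cells holding markers of another class the excess was 2.16 and 1.29 on that scale, from the 49 WT and 187 KO granulosa-like cells that remained. The granulosa-like level was 1.90-fold the germ-like level in WT and 1.48-fold in KO, and 2.501-fold and 1.76-fold the epithelia-like level. Of the small classes, endothelia-like cells held 16.2 and 10.1 CPM from 6 and 14 UMIs and perivascular-like cells 10.7 and 10.4 CPM from 3 and 6. Immune-like cells held 4.56 and 1.85 CPM from 2 UMIs and 1 UMI. Erythroid-like cells, in which germ marker RNA stood at a median of 37.2% of its germ-like level in WT and 52.4% in KO, held 5.42 and 4.46 CPM of Ptch1 from 2 and 4 UMIs.

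A Ptch1 UMI was seen in 23.1% of WT and 13.2% of KO granulosa-like cells at median depths of 12604 and 8480 UMIs. Thinned to 3000 UMIs the shares were 6.28% (4.80 to 8.04) and 4.06% (3.24 to 5.02). The thinned shares in stroma-like cells were 4.51% (3.20 to 6.17) and 2.54% (1.88 to 3.36), and those in immune-like cells 0 of 32 and 1 of 51. At equal depth the intervals of granulosa-like and stroma-like cells therefore overlapped in both libraries, with the granulosa-like share the higher.

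At finer resolution the granulosa-like class separated into 3 clusters, and Ptch1 was not even across them. The largest, led by Gng13 and Fst (684 WT and 1631 KO cells), held 19.4 CPM in WT (16.7 to 22.4) and 13.2 CPM in KO (11.5 to 15.1). The next, led by Akr1cl (204 and 327 cells), held 33.7 CPM (26.6 to 42.1) and 29.4 CPM (23.2 to 36.8). The second level was 1.74-fold the first in WT (log2 ratio 0.80, 0.40 to 1.19) and 2.23-fold in KO (1.15, 0.756 to 1.54). The smallest, led by Hsd17b11 (33 and 51 cells), held 11.3 CPM in WT (3.68 to 26.5, 5 UMIs), the lowest of the 3, and 32.2 CPM in KO (17.6 to 54.0, 14 UMIs), the highest. Gli1 was too scarce to be compared across these clusters, which held 0 to 2 UMIs each. These clusters were picked for description after their values were seen, so the contrast is a description. Among the stroma-like clusters the Ptch1 level lay between 7.62 and 12.2 CPM.

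In germ-like cells Ptch1 varied by cluster between 6.71 and 16.5 CPM. The lowest WT level, 9.01 CPM (7.97 to 10.1), was in a cluster led by Hist1h2aa and Syce3, whose KO level was 6.71 CPM. The clusters led by Rhox5 and Rec8 (15.4 and 16.5 CPM in WT and KO), by Stra8 and Tuba3a (14.7 and 14.0 CPM) and by Tchh and Taf15 (15.4 and 15.4 CPM) were the highest in both libraries. Stra8 and Rec8 are known as genes of entry into meiosis.

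Smo, the signal transducer, was higher in the 3 large somatic classes than in germ-like cells. Stroma-like cells held 84.8 CPM in WT (79.1 to 90.9, 809 UMIs) and 80.2 CPM in KO (75.8 to 84.9, 1220 UMIs). Granulosa-like cells held 70.0 and 61.2 CPM, and epithelia-like cells 69.4 and 71.2 CPM. Germ-like cells held 16.8 CPM (16.05 to 17.5) and 14.8 CPM (14.1 to 15.45). The stroma-like level was 5.06-fold the germ-like level in WT (log2 ratio 2.34, 2.22 to 2.46) and 5.44-fold in KO (2.44, 2.34 to 2.55). Granulosa-like and epithelia-like cells did not differ beyond counting error in WT (log2 ratio 0.01, −0.15 to 0.17), whereas in KO granulosa-like cells were lower (−0.22, −0.34 to −0.09). Endothelia-like cells held 27.0 CPM (12.9 to 49.6) and 25.8 CPM (18.1 to 35.8). Immune-like cells held 13.7 CPM (5.02 to 29.8) and 13.0 CPM (5.21 to 26.7) and erythroid-like cells 10.8 CPM (2.95 to 27.8) and 12.3 CPM (6.12 to 21.9), so these intervals contained the germ-like level in both libraries. Perivascular-like cells held 71.6 CPM (20 UMIs) in WT and 43.3 CPM (25 UMIs) in KO, with overlapping intervals. Within germ-like cells the levels ran from 11.3 to 31.3 CPM over clusters and libraries, so the highest germ-like cluster reached the endothelia-like level.

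Gli1, the effector whose transcription depends on the signal, lay mostly in stroma-like cells, which held 45 of the 52 somatic UMIs in WT and 87 of 96 in KO. These were 45 of all 82 WT UMIs (4.72 CPM, 3.44 to 6.31) and 87 of all 111 KO UMIs (5.72 CPM, 4.58 to 7.06). Granulosa-like cells, where Ptch1 was highest, held 2 UMIs in each library (0.163 CPM, 0.0197 to 0.587, and 0.104 CPM, 0.0126 to 0.377). Epithelia-like cells held 2 and 5 UMIs (0.271 and 0.374 CPM). Endothelia-like, immune-like and erythroid-like cells held 0 in both libraries, which at the floor of 3 UMIs allows up to 8.09, 6.83 and 8.13 CPM in WT and 2.15, 5.55 and 3.34 CPM in KO. The stroma-like level was 29.0-fold the granulosa-like level in WT (log2 ratio 4.86, 2.92 to 7.95) and 54.8-fold in KO (5.78, 3.88 to 8.84). Against epithelia-like cells it was 17.4-fold (log2 ratio 4.12, 2.18 to 7.21) and 15.3-fold (3.94, 2.66 to 5.595). With 2 to 5 UMIs on the lower side, these folds are known only within their wide intervals.

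Perivascular-like cells held 3 Gli1 UMIs in WT (10.7 CPM, 2.21 to 31.4) and 2 in KO (3.46 CPM, 0.420 to 12.5). Their intervals contained the stroma-like level, and their own stroma marker RNA stood at a median of 14.3% and 29.1% of the stroma-like level. Germ-like cells held 30 and 15 Gli1 UMIs (0.248 CPM, 0.167 to 0.354, and 0.123 CPM, 0.0689 to 0.203). That was 5.26% of the stroma-like level in WT and 2.15% in KO, above the 0.175% to 0.470% and 0.381% to 0.660% at which the 8 stroma markers stood in the same cells. In granulosa-like cells Gli1 stood at 3.45% and 1.82% of its stroma-like level, within the range of the stroma markers there (0.141% to 9.87% and 0.564% to 8.68%).

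A Gli1 UMI was seen in 41 of 820 WT stroma-like cells (5%, 3.61 to 6.72) and 82 of 1887 in KO (4.35%, 3.47 to 5.37), at median depths of 10027.5 and 6481 UMIs. Immune-like cells gave 0 of 32 and 0 of 51. At the floor of 3 counts that allows a share of up to 9.38% and 5.88%, so they were not shown to lie below stroma-like cells. Thinned to 3000 UMIs the stroma-like shares were 1.59% (0.847 to 2.70) and 2.28% (1.65 to 3.06), and the germ-like shares 0.0735% and 0.0392%. At finer resolution most of the UMIs were spread over 3 stroma-like clusters. The largest (509 and 1096 cells, led by Sparcl1) held 4.50 CPM in WT (2.88 to 6.70) and 7.30 CPM in KO (5.42 to 9.62). The cluster led by Lum and Dcn (144 and 291 cells) held 3.87 and 3.56 CPM. A dividing cluster (127 and 237 cells, with Ube2c and Aurkb among its leading genes) held 8.19 CPM (4.48 to 13.7) and 6.37 CPM (3.39 to 10.9). Intervals of these 3 clusters overlapped in each library. An unnamed cluster (61 WT and 327 KO cells) was led by stroma genes such as Col1a2 and Col1a1, while 8 of 8 germ markers passed in it. It held 3.25 CPM of Gli1 from 4 UMIs in WT and 3.84 CPM from 19 UMIs in KO. Scrublet called 65.5% of its cells doublets.

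Gli2, a main activator of the response, was highest in stroma-like cells among the 4 classes with most cells, as was Gli1. Stroma-like cells held 10.2 CPM in WT (8.25 to 12.4, 97 UMIs) and 10.3 CPM in KO (8.71 to 12.001, 156 UMIs). Epithelia-like cells were next of these classes, at 2.71 CPM (1.66 to 4.19) and 3.44 CPM (2.52 to 4.58). Perivascular-like cells held 7.16 and 3.46 CPM, from 2 UMIs in each library. Granulosa-like cells held 4 UMIs in each library, 0.325 and 0.209 CPM, and germ-like cells held 9 and 12 UMIs, 0.0745 and 0.0984 CPM. The stroma-like level was 31.3-fold the granulosa-like level in WT (log2 ratio 4.97, 3.56 to 6.87) and 49.1-fold in KO (5.62, 4.23 to 7.51). It was 3.75-fold the epithelia-like level in WT (log2 ratio 1.91, 1.20 to 2.68) and 2.98-fold in KO (1.58, 1.09 to 2.08). The WT log2 ratio against granulosa-like cells was 2.67 once cells with markers of another class were left out. That filter kept 49 WT granulosa-like and 249 WT stroma-like cells. The WT log2 ratio against epithelia-like cells was 0.96 after thinning. Epithelia-like Gli2 was 26.7% and 33.5% of the stroma-like level, while stroma markers in those cells had medians of 7.50% and 8.02%, with single markers up to 39.3% and 49.0%.

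Unlike the other effectors, Gli3, known mainly as a repressor when no ligand is present, was found at like levels in germ and somatic cells. Germ-like cells held 16.1 CPM in WT (15.4 to 16.8) and 14.2 CPM in KO (13.6 to 14.9), granulosa-like cells 15.0 and 12.8 CPM, stroma-like cells 20.02 and 20.9 CPM, and epithelia-like cells 15.46 and 19.8 CPM. Germ-like over all somatic-like cells gave a log2 ratio of −0.01 in WT (−0.16 to 0.13) and −0.25 in KO (−0.36 to −0.13). Perivascular-like cells held 28.6 and 19.1 CPM from 8 and 11 UMIs, and endothelia-like cells 2.70 and 7.90 CPM from 1 and 11. The Lum and Dcn cluster stood out from the largest stroma-like cluster in WT, at 37.4 CPM (28.4 to 48.4) against 13.9 CPM (10.9 to 17.4), 2.70-fold. In KO the levels were 26.4 CPM (19.7 to 34.6) and 21.3 CPM (18.0 to 25.1), with overlapping intervals.

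**Figure D2:**
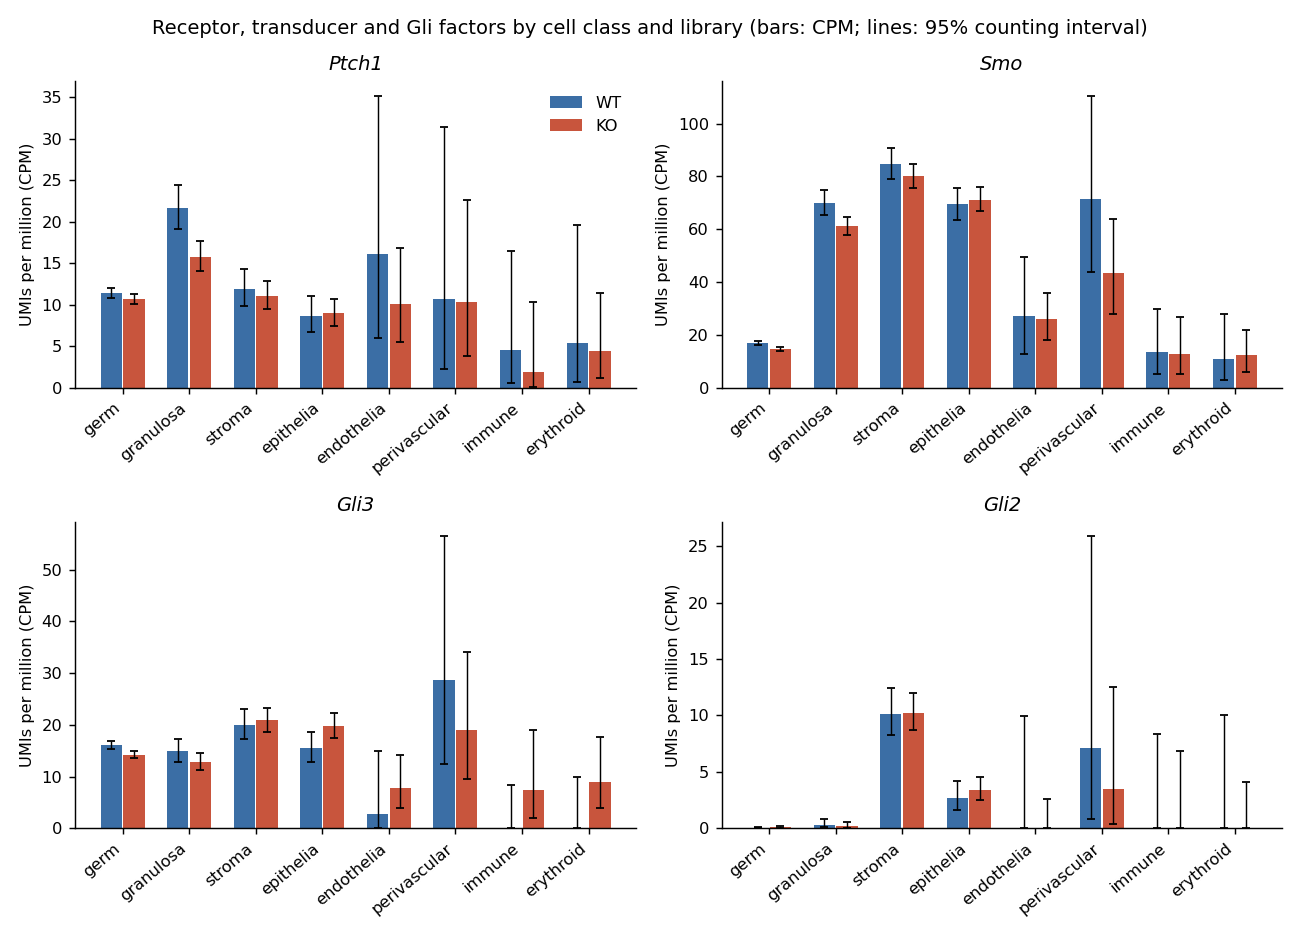
Level in CPM (vertical axes) of Ptch1, Smo, Gli3 and Gli2 in the 8 classes (horizontal axes), WT in blue and KO in red, with 95% counting intervals. Ptch1 was highest in granulosa-like cells among the large classes (21.7 and 15.8 CPM), Smo in stroma-like cells (84.8 and 80.2 CPM), and Gli2 stood in stroma-like cells at 10.2 and 10.3 CPM with 0.325 and 0.209 CPM in granulosa-like cells.

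The differences between classes were set against those of all genes. A gene entered when both sides together had at least 100 UMIs, and was counted past a limit of 2-fold. In stroma-like over granulosa-like cells, 9.57% of 10566 genes were at least 2-fold higher in WT and 9.52% of 11463 in KO. Of the 4 Hedgehog genes that entered (Ptch1, Smo, Gli2 and Gli3), 1 was higher, Gli2, in each library. At least 2-fold lower were 11.1% of genes in WT and 10.8% in KO, and 0 of the 4. Gli1, with 47 and 89 UMIs over both classes, had too few to enter. In stroma-like over epithelia-like cells 7.96% and 8.25% of genes were higher, and again Gli2 was the 1 of 4, while 6.34% and 7.42% of genes were lower and 0 of 4. In stroma-like over germ-like cells 26.4% and 27.6% of genes were higher, and Smo and Gli2 were 2 of 4 in WT, joined by Gli1 for 3 of 5 in KO, while 28.7% and 22.9% of genes were lower and 0 of the Hedgehog genes. In granulosa-like over germ-like cells 29.1% and 30.1% were higher, with Smo as 1 of 3, and 29.1% and 26.1% lower, with 0 of 3. In epithelia-like over germ-like cells 26.0% and 28.3% were higher, again with Smo as 1 of 3, and 31.4% and 28.4% lower, with 0 of 3. In granulosa-like over epithelia-like cells 7.86% of genes were higher in WT, with Ptch1 as 1 of 3, and 6.86% in KO, with 0 of 3. At least 2-fold lower there were 6.21% and 6.51% of genes and 0 of 3.

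**Figure D3:**
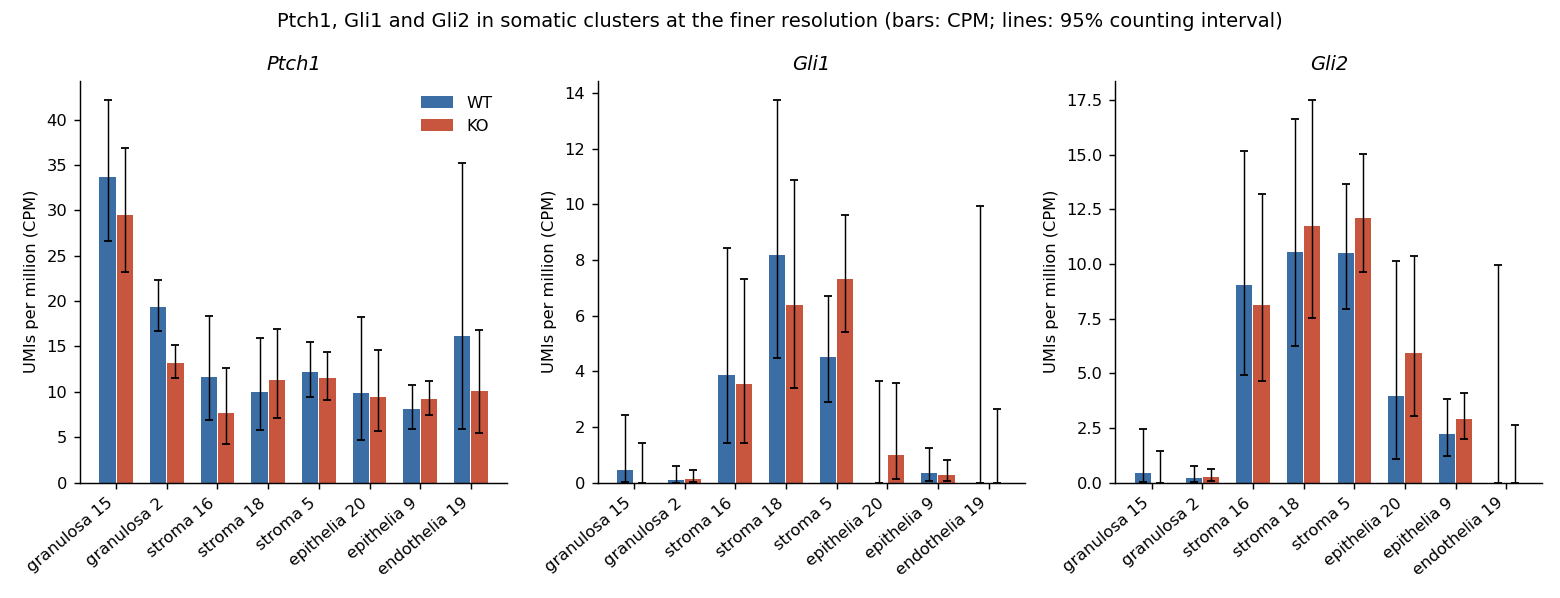
Level in CPM (vertical axes) of Ptch1, Gli1 and Gli2 in the named somatic clusters of at least 100 cells at the finer resolution (horizontal axes, named by class and cluster number), WT in blue and KO in red, with 95% counting intervals. Of the clusters drawn, granulosa cluster 15, led by Akr1cl, held most Ptch1 (33.7 and 29.4 CPM), while Gli1 and Gli2 UMIs lay mainly in stroma clusters 5, 16 and 18.

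Whether the genes go together in the same cells could be read only weakly, since most cells held no UMI. Of stroma-like cells with a Gli1 UMI, 8 of 41 in WT (19.5%, 8.82 to 34.9) and 14 of 82 in KO (17.1%, 9.66 to 27.0) also had a Ptch1 UMI, against 11.2% (9.04 to 13.6) and 7.87% (6.67 to 9.21) of those without. These intervals overlapped in WT and not in KO. Median depths of cells with and without a Gli1 UMI were 9254 and 10086 UMIs in WT and 6609.5 and 6472 in KO. After thinning the shares were 0 of 13 (0 to 24.7%) and 2 of 43 (4.65%, 0.568 to 15.8), against 4.58% and 2.49%. Those cells were too few to tell whether an excess remained. Gli2 UMIs were in 9.76% and 6.10% of cells with Gli1 and in 11.04% and 7.76% of cells without.

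Loss of GR was compared within each class. No Hedgehog gene with at least 100 UMIs was 2-fold changed in either direction in any of the 4 large classes. In germ-like cells 1.14% of 13816 genes passed that limit and 0 of 5 Hedgehog genes, in granulosa-like cells 0.914% of 11048 genes and 0 of 3, in stroma-like cells 0.772% of 10628 and 0 of 5, and in epithelia-like cells 0.330% of 10006 and 0 of 3. With so few Hedgehog genes measured, 0 is near these backgrounds. At 1.5-fold the backgrounds were 5.31%, 4.79%, 4.86% and 1.98%, and 1 gene passed, Hhip in germ-like cells (log2 ratio KO over WT 0.69, 0.09 to 1.32).

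Ptch1 was lower in KO granulosa-like cells by 0.46 on the log2 scale (−0.46, −0.70 to −0.22). The difference was −0.55 (−0.84 to −0.26) in the largest granulosa cluster and −0.20 (−0.67 to 0.28) in the Akr1cl cluster, whose interval contained 0. In the smallest it pointed the other way, at 1.503 (−0.05 to 3.33) from 14 KO and 5 WT UMIs, again with 0 inside the interval. Germ marker RNA moved beside it, at a median of 9.97% in WT and 16.3% in KO of what germ-like cells held, and its part in the Ptch1 difference was not tested. With all cells holding markers of another class left out the ratio was −0.81, from the 49 WT and 187 KO cells that remained. In stroma-like cells the Ptch1 ratio was −0.10 (−0.46 to 0.25), and −0.84 after thinning to equal depth, when 37 WT and 48 KO cells had a UMI. It was 0.05 (−0.40 to 0.51) in epithelia-like cells and −0.10 (−0.21 to 0.02) in germ-like cells. Within germ-like clusters it was below 0 beyond counting error in 3 of 8, −0.54 in the cluster led by Morn5, −0.42 in that led by Hist1h2aa and −0.75 in that led by Sohlh1, and the other 5 ranged from −0.29 to 0.10.

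Of the response effectors, Gli1 in stroma-like cells had a KO over WT ratio of 0.28 (−0.26 to 0.83) and Gli2 of 0.01 (−0.36 to 0.39). Both intervals contained 0, and they leave room for a change of 1.5-fold in Gli1. Gli1 in germ-like cells was 0.123 CPM in KO and 0.248 CPM in WT (−1.01, −2.01 to −0.07), from 45 UMIs in all. Smo was slightly lower in KO germ-like cells (−0.18, −0.28 to −0.09) and granulosa-like cells (−0.20, −0.32 to −0.07), and was −0.08 (−0.21 to 0.05) in stroma-like and 0.04 (−0.12 to 0.19) in epithelia-like cells. Gli3 was lower in KO germ-like cells (−0.18, −0.27 to −0.08) and higher in KO epithelia-like cells (0.36, 0.04 to 0.69), and after thinning to equal depth the epithelia-like ratio was −0.24. In the largest stroma-like cluster Gli3 was higher in KO (0.62, 0.21 to 1.04), while in the whole stroma-like class it was 0.06 (−0.20 to 0.33). In the Lum and Dcn cluster it was −0.50 (−1.07 to 0.06) and in the dividing cluster −0.56 (−1.20 to 0.08), both opposite in sign and with 0 inside the interval. Ihh in germ-like cells was −0.32 (−0.79 to 0.15). The median over the Hedgehog genes tested was −0.18 in germ-like, −0.22 in granulosa-like, 0.01 in stroma-like and 0.05 in epithelia-like cells, beside −0.05, −0.02, 0.01 and 0.03 over all genes tested.

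**Figure D4:**
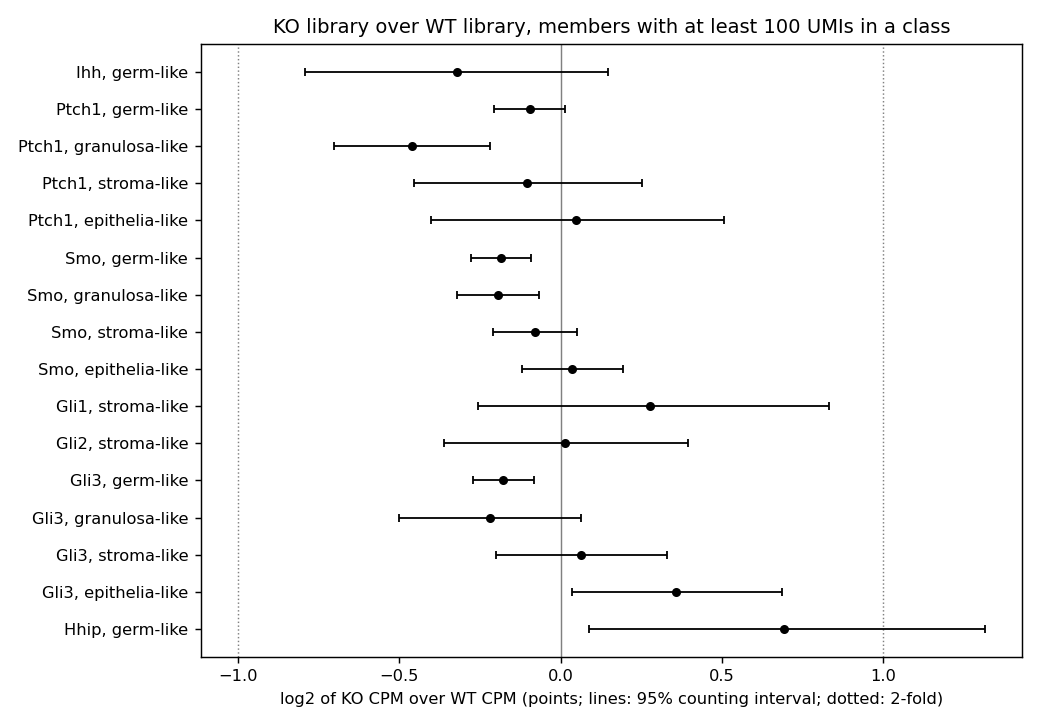
Log2 ratio of KO over WT CPM (horizontal axis) for each Hedgehog gene and class with at least 100 UMIs (vertical axis), with 95% counting intervals, and dotted lines at 2-fold. All points lie inside the 2-fold lines. Ptch1 in granulosa-like cells (−0.46) lies below 0 and Hhip in germ-like cells (0.69) above it.

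Other genes of the pathway were counted from a list of 33 regulators and 11 reported target genes. In stroma-like over granulosa-like cells 3 of 26 regulators tested in WT and 3 of 29 in KO were at least 2-fold higher, and 0 and 1 were 2-fold lower. Over all genes tested 9.57% in WT and 9.52% in KO were higher, and 11.1% and 10.8% lower. The regulators were thus near the share of higher genes. Of the targets, 3 of 7 were higher in each library and 0 lower, a count not tested against the share over all genes. The median log2 ratio of the 7 was 0.53 in WT and −0.10 in KO. Among them Ccnd1 changed sign, from 0.53 in WT (0.14 to 0.93) to −0.65 in KO (−0.99 to −0.31). The regulators that were higher were Gas1, a co-receptor that helps ligand bind PTCH1 (296 against 68.6 CPM in WT and 266 against 72.3 CPM in KO, log2 ratios 2.11 and 1.88), and Scube1 and Scube3, of a family that helps release ligand (1.27 and 1.45 in WT, 1.87 and 1.03 in KO). Gas1 stood also in epithelia-like cells at 234 and 233 CPM but in germ-like cells at 2.60 and 3.23 CPM.

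The targets that were higher in stroma-like cells were Snai1 (44.4 against 0.406 CPM in WT, log2 ratio 6.77, and 5.54 in KO), Osr1 (5.72 and 6.21) and Nr2f2 (3.94 and 3.80), all transcription factor genes with wider roles in mesenchyme. Foxf1, Foxf2, Foxl1 and Foxd1, targets in other organs, had at most 0.406 CPM in either class. Of the genes toward granulosa-like cells, Btrc (−0.98 in WT and −0.73 in KO) and Mycn (−0.50 and −0.82) kept their sign in KO, as did Disp1 (−0.34 and −0.64), the ligand release gene, and Gsk3b (−0.27 and −0.22). Efcab7 (−0.41 and 0.15) and Evc2 (−0.35 and 0.18) did not. The co-receptors Boc (34.7 and 28.2 CPM in stroma-like, 35.1 and 28.6 CPM in granulosa-like cells) and Cdon (14.5 and 14.2, 16.5 and 13.3 CPM) were near equal in both classes. Between KO and WT, 0 of the regulators and targets tested were 2-fold changed in any of the 4 large classes. Over all genes the share was 1.14% in germ-like, 0.914% in granulosa-like, 0.772% in stroma-like and 0.330% in epithelia-like cells. The median log2 ratio of KO over WT of the targets tested was −0.10, −0.01, −0.32 and −0.14 in these classes. Over all genes tested it was −0.05, −0.02, 0.01 and 0.03. In stroma-like cells Ccnd1 was −0.79 (−1.17 to −0.40) and Bcl2 −0.65 (−0.90 to −0.41), while Ccnd1 in granulosa-like cells was 0.39 (0.05 to 0.74). These differences had no replicate check.

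The genes most like Gli1 over the 16 points of 8 classes in 2 libraries, by Pearson correlation of log2(CPM + 10), were Cntfr (r = 0.968), Dlgap1 (0.944), Prrx1 (0.942), Sncaip (0.930) and Col6a3 (0.927). Those most like Ptch1 were Fbxw9 (0.926), Pex6 (0.907), Zbtb20 (0.902), Zfp334 (0.890) and Exoc7 (0.889), and those most like Ihh were Ppp1r3fos (0.872), Chd5 (0.867), Slc7a6 (0.854), Ildr1 (0.846) and Mageb4 (0.835). None of the nearest genes was shared between Gli1 and Ptch1. The points of a library share its depth and any free RNA, the small classes add noise, and no test was made. The highest Ihh point, 1.11 CPM in KO erythroid-like cells, came from 1 UMI and is small beside the 10 CPM added. The highest Gli1 point, 10.7 CPM in WT perivascular-like cells, came from 3 UMIs.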

How the data were processed

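Single-cell RNA-seq was analysed from 1 WT and 1 KO library of E15.5 ovaries. The authors deposited raw UMI counts per gene and barcode, made with Cell Ranger on mm10 per the labels (the matrix header names version 3.0.2), and used Seurat 3.2.3. Cells were kept by the study's strict limits (WT 1500 to 6500 genes and 5500 to 40000 UMIs, KO 1200 to 5500 and 3000 to 30000, mitochondrial share under 10%). With scanpy 1.11.5, 2000 variable genes without 52 Hedgehog pathway genes, 30 principal components, 20 neighbours and Leiden (leidenalg 0.10.2) at resolution 0.5 gave the classes, and 1.0 the finer clusters. A class needed at least 3 fixed markers, each in 10% of cells and 2-fold above the rest. Scrublet doublets (2.6% of WT and 6.6% of KO cells) were removed only as an alternative. The members and lists were chosen with earlier results of these data known. The neighbour graph, the naming rule and the finer clusters described were settled after clusters were seen. Counts were summed per class and library as CPM. Intervals are exact Poisson for CPM, conditional binomial for ratios and Clopper-Pearson for shares, at 95%. No test between genotypes was possible. Named genes were all 8 members, up to 6 pathway genes in each direction with most stroma-like over granulosa-like difference in WT, and the 5 genes most alike. Others named, among them Shh, Boc, Cdon and the Fox genes, were chosen after their values were seen, and 1 list result is not reported here. Gene spans are from GENCODE and promoters from RefSeq. Intervals and the ratio of summed counts were tested on simulated data.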

Additional observations from a re-analysis of the deposited data

Results flagged for a closer look

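Gli3 moved in opposite directions in 2 classes. Its log2 ratio of KO over WT was −0.18 in germ-like cells (1734 and 1944 UMIs) and 0.36 in epithelia-like cells (265 and 114 UMIs), each with a counting interval that did not contain 0. The difference between the classes was not tested, since each genotype was 1 library. Thinned to 3000 UMIs per cell, the epithelia-like ratio was −0.24.

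Barcodes outside the limits on cells, which no comparison used, held Hedgehog RNA. The 2385 WT barcodes left out held 1415 UMIs of the 8 genes and the 2327 KO barcodes left out 1000. Ptch1 stood there at 20.4 CPM in WT and 17.1 CPM in KO, Smo at 39.6 and 37.7 CPM and Gli3 at 20.3 and 18.2 CPM. Gli1 was at 0.531 and 0.613 CPM from 9 and 8 UMIs.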

How the results depend on the processing

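Each value was recomputed with common limits on cells, without Scrublet doublets, without cells holding markers of another class, with cells thinned to 3000 UMIs, as a mean over cells, with another total and at Leiden resolution 1.0. Of the KO over WT ratios 106 of 115 moved by no more than counting error, as did 65 of 77 ratios between classes. The CPM levels were less stable: 171 stayed within counting error and 67 moved, 31 of them when mitochondrial, ribosomal and haemoglobin genes left the total, which raised every level, and 19 when cells with markers of another class were removed. The cause of the other moves was not tested. On the log2 scale, used for all ratios that follow, thinning gave −0.24 for Gli3 KO over WT in epithelia-like cells, a reversal of 0.36. It gave −0.84 for Ptch1 and 0.14 for Smo KO over WT in stroma-like cells, −0.34 for Smo KO over WT in granulosa-like cells, 0.96 for Gli2 stroma-like over epithelia-like and 0.50 for Ptch1 granulosa-like over stroma-like in WT, and 2.70 for Smo stroma-like over germ-like in KO. Removing cells with markers of another class left 49 WT and 187 KO granulosa-like cells and 1 epithelia-like cell in each library, which gave no epithelia-like value. It gave 2.67 for Gli2 stroma-like over granulosa-like in WT, 0.12 for Gli3 and −0.81 for Ptch1 KO over WT in granulosa-like cells, and 0.22 for Smo in stroma-like cells. Ptch1 granulosa-like over germ-like became 1.76 in WT and 1.01 in KO, over stroma-like 2.16 and 1.29, and Smo stroma-like over germ-like in KO 2.76. Smo KO over WT in stroma-like cells was 0.077 without doublets and 0.060 at resolution 1.0, and its stroma-like over germ-like value in KO was 2.69, 2.63 and, as a mean over cells, 2.56. Genes past 1.5-fold between KO and WT numbered 198 in epithelia-like, 734 in germ-like, 529 in granulosa-like and 516 in stroma-like cells, and past 2-fold with at least 20 UMIs 279, 527, 406 and 416. Stroma-like over granulosa-like counts with 20 UMIs were 3562 in KO and 3554 in WT. Dhh, Ihh, Gli1 and Hhip rest on few molecules, and depth limits what can be said of them outside their highest class. Of the stroma-like cells, the smaller cluster had 34.4% Scrublet calls. No paired analysis was possible because each genotype was 1 library, and for the same reason no library could be left out.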
